A study of Mus musculus with 12 samples.

Results

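The MHC class II presentation genes were described in mouse 4T1 breast tumors treated with interleukin-10, with an antibody to the receptor CSF1R, or with both joined in 1 protein. The 10 genes were picked by symbol from the 55401 rows of the expression table. They were the classical chains H2-Aa, H2-Ab1 and H2-Eb1, the DM chains H2-DMa, H2-DMb1 and H2-DMb2, the DO chains H2-Oa and H2-Ob, the invariant chain Cd74 and the transactivator Ciita. All 10 were found. All 10 passed the filter of at least 1 TPM (transcript level corrected for length and brought to the same total in each library) in at least 3 of the 12 libraries, as did 15504 genes in all. H2-Ob passed with exactly 3 libraries, which were control replicates 4 and 7 and aCSF1R replicate 4.

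4T1 is a mammary carcinoma cell line that was grown in the mammary gland of Balb/c mice, the strain it came from. Treatment was given 2 times per week from a tumor size of 100 mm3, for 6 doses by the sample labels and 4 by the series text, and whole tumor tissue was sequenced from 3 tumors in each of 4 groups. Control tumors received a control isotype protein (IgG1-Fc), IL-10-Fc tumors recombinant IL10-Fc protein, aCSF1R tumors a CSF1R antibody, and BF10 tumors the IL10/CSF1R (BF10) fusion protein, which by the study's methods carried human IL-10 at the end of an antibody to mouse CSF1R. The mice were 6 to 8 weeks old when purchased. The sources used here do not say whether the tumors came from separate litters or cohorts, so p-values measure the spread between these 12 tumors. The tissue is a mixture of cell types, in which fewer cells of a type and less RNA per cell cannot be told apart.

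Of the genes, 8 lie in 1 stretch of chromosome 17, from H2-Oa (34092340 to 34095234, plus strand, GRCm38) to H2-Eb1 (34305867 to 34316674, plus strand). In between stand H2-DMa (34119541 to 34139101, plus), H2-DMb2 (34143307 to 34151555, plus), H2-DMb1 (34153072 to 34160230, plus), H2-Ob (34238903 to 34254414, plus), H2-Ab1 (34257689 to 34269419, plus) and H2-Aa (34282744 to 34287823, minus). Ciita lies on chromosome 16 (10480059 to 10528418, plus) and Cd74 on chromosome 18 (60803848 to 60812652, plus).

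Class II molecules present peptides from endocytosed proteins to CD4 T cells, and are made mainly by dendritic cells, macrophages and B cells. An alpha and a beta chain pair in the endoplasmic reticulum with the invariant chain Cd74, which blocks the groove and steers the complex to endosomes. There proteases such as cathepsin S (Ctss) cut the invariant chain, DM exchanges its last fragment for a peptide, and DO, known best from B cells, restrains DM. Ciita is the coactivator that switches on the whole family by docking on factors bound to the shared X and Y boxes of their promoters, and interferon-gamma induces it. IL-10 is known for lowering class II on the surface of monocytes and macrophages. Balb/c mice carry the d haplotype of the MHC, whereas the reference genome carries b, so reads from polymorphic exons may be placed unequally, in all groups alike.

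The promoters are shown because Ciita is known to act through the X and Y boxes of class II promoters. RefSeq promoter sequences (GRCm38.p6) were at hand for 7 of the 10 genes in 8 entries, and for H2-Ab1, Cd74 and Ciita no sequence is shown. The 250 bases before each start were searched on both strands for the core of the Y box, ATTGG, for AACNNATG, which resembles the X1 box, for CGTCA, which resembles the X2 box, and for TTCNNNGAA, a STAT site. In the 60-base stretches around the Y box that follow, capitals mark ATTGG and any AACNNATG or CGTCA on the same strand.
H2-DMb2 (chr17:34145114-34145173, plus): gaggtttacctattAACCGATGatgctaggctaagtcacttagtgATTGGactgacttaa
H2-DMb1 (chr17:34153085-34153144, plus): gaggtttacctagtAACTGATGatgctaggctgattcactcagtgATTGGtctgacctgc
H2-Ob (chr17:34238803-34238862, plus): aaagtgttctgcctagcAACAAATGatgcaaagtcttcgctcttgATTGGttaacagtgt
H2-Eb1 (chr17:34305763-34305822, plus): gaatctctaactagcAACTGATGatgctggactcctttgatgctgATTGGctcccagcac
H2-Aa (chr17:34287857-34287916, minus): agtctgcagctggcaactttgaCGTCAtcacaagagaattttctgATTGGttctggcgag
H2-Oa (chr17:34092291-34092350, plus): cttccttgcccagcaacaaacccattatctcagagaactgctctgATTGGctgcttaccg
H2-DMb2, H2-DMb1, H2-Ob and H2-Eb1 held AACNNATG at 31, 31, 28 and 30 bases before ATTGG. A pair of AACNNATG and ATTGG within 40 bases on 1 strand, a search added after the sequences were seen, stood in 77 of all 32851 promoters (0.234%). H2-Aa held CGTCA at 23 bases before ATTGG, a pair found within 30 bases in 0.661% of promoters. Alone, ATTGG stood in 33.8% of promoters, CGTCA in 17.8%, AACNNATG in 7.71% and TTCNNNGAA in 7.02%. TTCNNNGAA stood in the H2-DMb2 entry only, at 218 bases before the start, and of the H2-DMa entries 1 held ATTGG, at 198 bases before the start. The H2-DMb2 and H2-DMb1 stretches were identical at 51 of 60 positions, against at most 28 of 60 for any other pair shown. The starts meant here are those of RefSeq, which differ for some genes from the gene positions given above. The stretches shown for H2-DMb2 and H2-DMb1, and the H2-DMa entry with ATTGG, lie inside those gene positions. These matches describe letters and not binding.

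The libraries fell into 2 sets that cut across the groups. The sum of the deposited values ranged from 782919 to 921581 in 5 libraries (control replicates 4 and 7, IL-10-Fc replicate 7, aCSF1R replicate 8 and BF10 replicate 6), the higher-sum set. In the 7 remaining libraries, the lower-sum set, it ranged from 609695 to 648413. Mitochondrial transcripts held 5.90% to 9.26% of the sum in the first and 3.14% to 3.96% in the second, and ribosomal protein transcripts 21.1% to 25.4% and 13.1% to 15.7%. Relative sequencing depth overlapped between the sets, at 0.904 to 1.00 and 0.911 to 1.07 of the median library. Control had 2 higher-sum libraries and every treatment 1. Tests are therefore given both without and with a term for the set.

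H2-Aa, the alpha chain of I-A, was at 1708, 800.3 and 2058 TPM in control replicates 4, 5 and 7, at 1531, 1637 and 1405 in IL-10-Fc replicates 2, 4 and 7, at 877.1, 883.5 and 1696 in aCSF1R replicates 4, 6 and 8, and at 1285, 1583 and 1636 in BF10 replicates 3, 6 and 7. The 3 lowest libraries, control 5 and aCSF1R 4 and 6, were the 3 lower-sum libraries without IL-10. H2-Ab1, the beta chain that pairs with it, was at 221.3, 480.9 and 476.3 TPM in control, 902.2, 872.5 and 315.2 in IL-10-Fc, 514.3, 525.5 and 168.1 in aCSF1R and 852.03, 281.9 and 979.6 in BF10, in the same order of replicates. The 4 highest libraries were the lower-sum ones of IL-10-Fc and BF10, and the ranges of all 4 groups overlapped. H2-Eb1, the beta chain of I-E, was at 382.6, 567.1 and 534.005 TPM in control, 1169, 1139 and 460.6 in IL-10-Fc, 719.3, 703.7 and 326.6 in aCSF1R and 945.1, 497.3 and 1215 in BF10. It followed H2-Ab1, with the same 4 libraries on top.

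Cd74, the invariant chain, was at 469.9, 1328 and 765.5 TPM in control, 2644, 1928 and 725.1 in IL-10-Fc, 1562, 1480 and 309.8 in aCSF1R and 2186, 640.6 and 2475 in BF10. It spanned more than the classical chains did, and the lower-sum libraries of every group lay above all 5 higher-sum ones. Ciita, the transactivator, was at 7.18, 16.5 and 7.85 TPM in control, 32.6, 27.3 and 13.7 in IL-10-Fc, 19.9, 22.5 and 8.38 in aCSF1R and 22.2, 11.1 and 31.7 in BF10. Control replicates 4 and 7 and aCSF1R replicate 8, the higher-sum libraries without IL-10, were the 3 lowest.

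The DM chains were less abundant than the chains they serve. H2-DMa was at 57.9, 128 and 99.9 TPM in control, 218.7, 189.2 and 70.01 in IL-10-Fc, 115, 125.7 and 42.004 in aCSF1R and 178.3, 88.8 and 240.3 in BF10. H2-DMb1 was at 43.4, 103.7 and 59.6 TPM in control, 211.6, 154.7 and 62.2 in IL-10-Fc, 115.3, 143.6 and 37.6 in aCSF1R and 136.2, 57.8 and 214.1 in BF10. H2-DMb2, the second DM beta chain, was at 32.8, 77.2 and 51.1 TPM in control, 184.7, 146.4 and 57.1 in IL-10-Fc, 95.5, 96.5 and 32.9 in aCSF1R and 130.8, 56.7 and 189.3 in BF10. For all 3 DM genes the 4 lower-sum libraries with IL-10 stood at the top, except that aCSF1R replicate 6 exceeded BF10 replicate 3 for H2-DMb1.

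The DO chains were low in every library but 1. H2-Oa was at 2.93, 2.08 and 10.3 TPM in control, 4.38, 4.97 and 3.93 in IL-10-Fc, 3.06, 2.72 and 3.17 in aCSF1R and 2.85, 4.97 and 3.88 in BF10. H2-Ob was at 1.12, 0.905 and 7.10 TPM in control, and at 0.195 to 1.43 TPM in the 9 treated libraries. Control replicate 7 stood apart in both. It also held 82.7 TPM summed over 8 B cell genes, among them Cd79b (29.5 TPM) and Ms4a1 (15.8), against 0.987 to 7.23 TPM in the other 11 libraries. Only 2 of those 8 genes passed the filter. The part of these B cell transcripts in the class II values of control replicate 7 was not tested. Some of the results that rest on that library, but not all, are also given without it.

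Ordered by the median over the 12 libraries, the levels ran from H2-Aa (1557 TPM) through Cd74 (1404), H2-Eb1 (635.4), H2-Ab1 (497.6), H2-DMa (120.3), H2-DMb1 (109.5), H2-DMb2 (86.4), Ciita (18.2) and H2-Oa (3.53) to H2-Ob (0.617). The ranges of neighbours in this order overlapped for every pair except H2-DMb2 with Ciita, where the lowest H2-DMb2 value (32.8 TPM) lay just above the highest Ciita value (32.6 TPM). H2-Ab1 with H2-DMa overlapped only through the higher-sum libraries. Ciita with H2-Oa, and H2-Oa with H2-Ob, overlapped only through control replicate 7. H2-Ea, the I-E alpha chain that C57BL/6 mice do not express and Balb/c mice do, is no member of the 10 but was at 526.5 to 1591 TPM. H2-Eb2 did not pass the filter, at no more than 0.512 TPM.

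**Figure D1:**
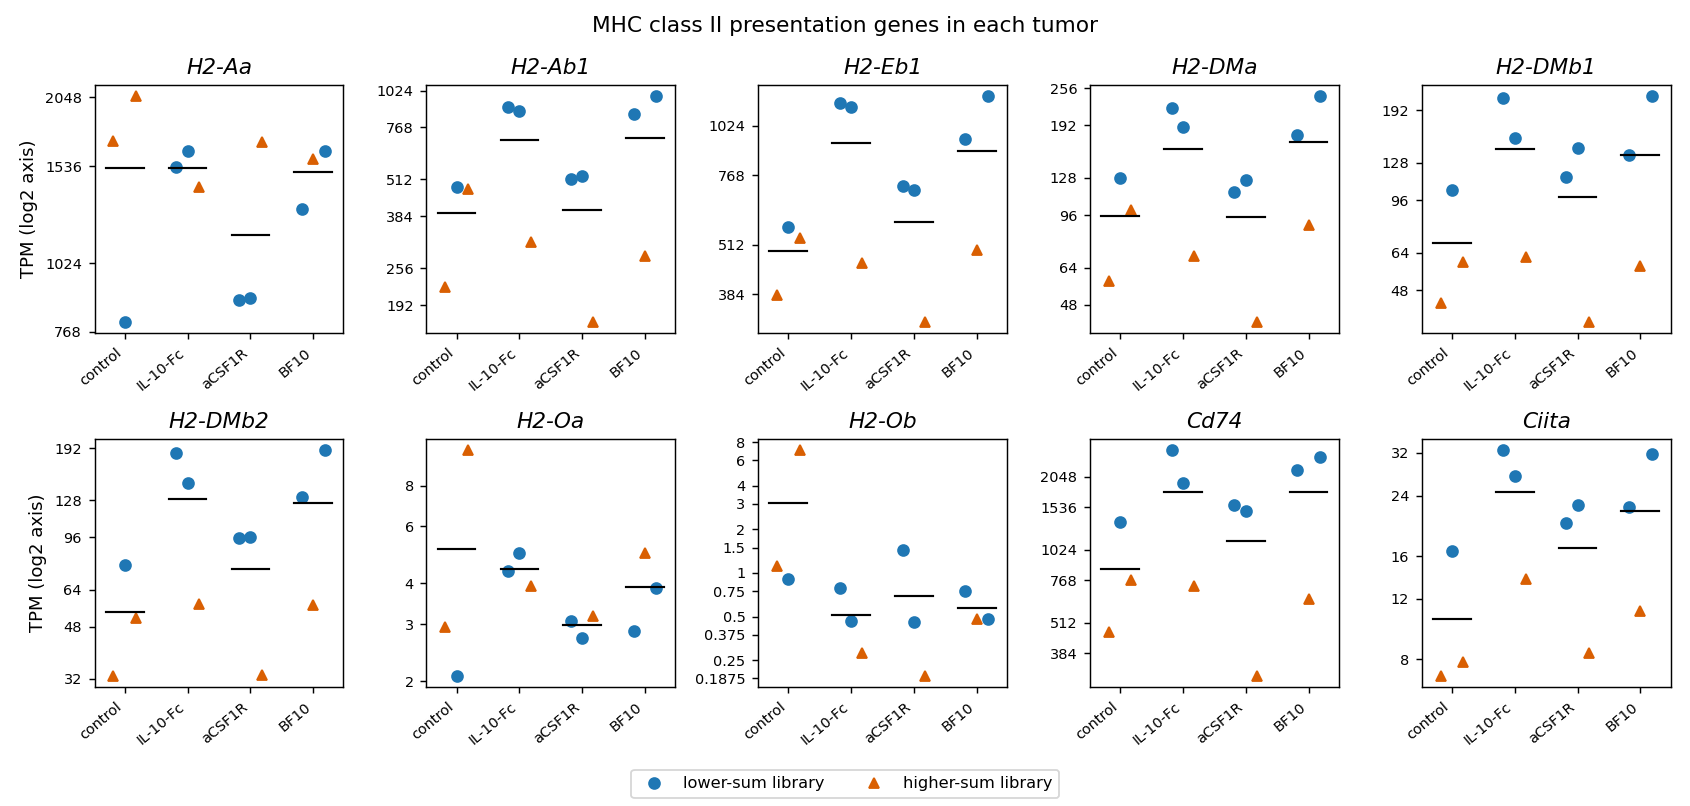
TPM (log2 axis) of each of the 10 genes in the 3 tumors of each group, with circles for lower-sum and triangles for higher-sum libraries and a black line at the group mean. In 7 of the 10 panels the triangles lie lower than the circles of their own group, and in the H2-Aa panel the triangles of control and aCSF1R lie higher.

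The 10 genes did not move as 1 block between the sets. With the groups held in a limma model of log2(TPM + 1), 7 genes were lower in the higher-sum libraries past the threshold used throughout, a Benjamini-Hochberg adjusted p below 0.05 and at least 1.5-fold. These were Cd74 (log2 difference -1.73, 95% interval -2.13 to -1.34, limma adjusted p 2.22e-05), H2-DMb1 (-1.46), H2-DMb2 (-1.34), H2-Ab1 (-1.34), H2-DMa (-1.24), Ciita (-1.13) and H2-Eb1 (-0.97). As many as 59.2% of the 15504 genes tested passed in this comparison, 8369 of them as lower, with a median of -0.68 over all genes tested. A lower level in the higher-sum libraries was thus not particular to these 7 genes. The opposite sign was seen for H2-Aa (0.53, 95% interval 0.11 to 0.96, limma adjusted p 0.0271), which missed the 1.5-fold limit, and H2-Oa (0.37) and H2-Ob (0.0027) did not pass. The split was between alpha and beta chains of the classical pairs. H2-Aa exceeded H2-Ab1 by 2.11 to 3.33 on the log2 scale in higher-sum tumors but by 0.59 to 0.91 in lower-sum tumors, and the log2 ratio of H2-Ea over H2-Eb1 was 1.10 to 2.28 and -0.30 to -0.095, so neither ratio overlapped between the sets. As the sets were defined from the totals of these same libraries, the differences between them, with their p-values, and the ratios are a description.

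**Figure D2:**
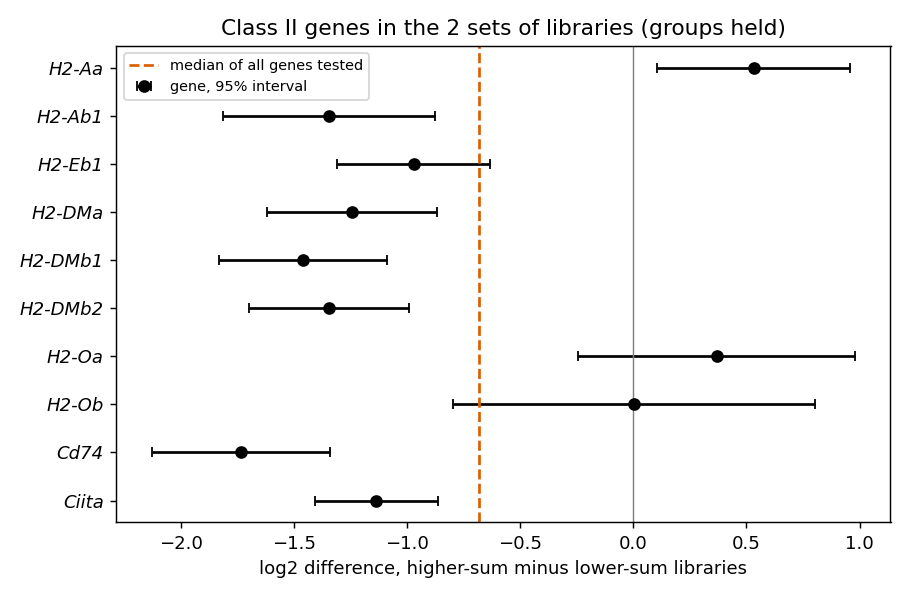
Log2 difference of each class II gene between higher-sum and lower-sum libraries with the groups held, with 95% intervals (limma), a grey line at 0 and a dashed line at the median of all genes tested, -0.68. A group of 7 genes lies at -0.97 or below, and H2-Aa lies at 0.53.

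Against control, the question was whether IL-10, CSF1R blockade or their fusion changed class II transcripts. The levels in BF10 and IL-10-Fc tumors were above control for most of the family, by medians of 0.77 and 0.78 on the log2 scale over the 10 genes, when the median of all genes tested stood at 0.32 and 0.35. In BF10 the values ran from -1.03 for H2-Ob through 0.080 for H2-Aa to 1.13 for H2-DMb2, and in IL-10-Fc from -1.10 for H2-Ob to 1.18 for H2-DMb2. In aCSF1R the median was 0.059, beside 0.24 over all genes. None of the 10 genes passed in any of the 3 comparisons (limma adjusted p 0.738 to 0.977), while 0%, 0.00645% and 0.568% of all genes tested did so in BF10, IL-10-Fc and aCSF1R. At an unadjusted p under 0.05 there were 0, 2 and 0 of the 10, and 1.51%, 1.44% and 3.46% of all genes. Scaling by the median of ratios moved the median of all genes to 0.019, 0.0027 and 0.034, and that of the 10 genes to 0.40, 0.34 and -0.18.

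With the library set as a term, the median differences from control of BF10, IL-10-Fc and aCSF1R tumors were 0.37, 0.36 and -0.22, beside 0.068, 0.10 and 0.0068 over all genes. Again none of the 10 passed, against 0.00645%, 0.0258% and 2.01% of all genes, with 2, 3 and 0 of the 10 at an unadjusted p under 0.05 and 3.75%, 3.70% and 7.53% of all genes. H2-DMb2 was the highest in BF10 at 0.68 (95% interval 0.20 to 1.17), and Ciita in IL-10-Fc at 0.78 (95% interval 0.41 to 1.15, limma adjusted p 0.670). For H2-Ob the 3 differences ran from -1.10 to -0.98, and without control replicate 7 from -0.47 to -0.36. The single lower-sum control library was below the lower-sum treated libraries for Cd74 (1328 TPM), Ciita (16.5) and both DM beta chains, but not for H2-DMa, where its 128 TPM lay just above both aCSF1R values.

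BF10 and IL-10-Fc, which both deliver IL-10, gave near-equal class II levels. The differences of BF10 against IL-10-Fc lay between -0.20 (Ciita) and 0.13 (H2-DMa), with none of the 10 passing (limma adjusted p 1.00, 0% of all genes, and at an unadjusted p under 0.05 0 of the 10 and 42 of all genes). With the library set as a term the 95% intervals still allowed differences of -0.51 to 0.42 for H2-DMb2 and -0.56 to 0.50 for Cd74, so they do not show that the levels were alike. The contrast for an effect of the fusion beyond the sum of its parts also passed for none of the 10, without the set term (0.29% of all genes) or with it (1.21%).

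Compared with aCSF1R tumors, those with IL-10 had higher values for 9 of the 10 genes, also under median of ratios scaling and without rescaling, though not with the replicate number as a block, where 5 and 2 were higher. BF10 against aCSF1R gave 0.87 for H2-DMa, 0.79 for H2-Ab1, 0.76 for Cd74, 0.73 for H2-DMb2, 0.59 for H2-Eb1, 0.47 for H2-DMb1, 0.45 for H2-Aa, 0.33 for Ciita, 0.28 for H2-Oa and -0.047 for H2-Ob. IL-10-Fc against the same 3 aCSF1R libraries gave 0.81 for H2-Ab1, 0.79 for Cd74, 0.77 for H2-DMb2, 0.74 for H2-DMa, 0.63 for H2-Eb1, 0.56 for H2-DMb1, 0.53 for Ciita, 0.47 for H2-Aa, 0.44 for H2-Oa and -0.11 for H2-Ob. The medians over all genes were 0.056 and 0.11. These differences are the same with and without the set term, because each of the 3 groups held 1 higher-sum library. In the same comparisons 7 of 11 macrophage genes passed as higher with IL-10 (10 of 11 with the set term, medians 3.03 and 2.75), and their part in the class II differences was not tested.

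The spread decided whether they passed. Without the set term none of the 10 did (limma adjusted p 1.00, 0.735% and 0.542% of all genes). At an unadjusted p under 0.05 there were 0 of the 10 in both, and 4.26% and 3.56% of all genes. With it none passed either, while 2.82% and 2.13% of all genes did. An unadjusted p under 0.05 was reached by 5 and 7 of the 10, and by 11.1% and 9.60% of all genes. The nearest were H2-DMa in BF10 (95% interval 0.37 to 1.37, limma adjusted p 0.0834) and H2-DMb2 in IL-10-Fc (95% interval 0.30 to 1.24, limma adjusted p 0.127). Without control replicate 7, which enters these comparisons only through the shared estimate of spread and of the set, H2-Ab1 (limma adjusted p 0.00819 and 0.00889), H2-DMa (0.0123 and 0.0384) and H2-DMb2 (0.0478 and 0.0438) passed in both, at unchanged differences, with 2.62% and 1.97% of all genes. Among the 7 lower-sum libraries alone H2-Ab1 passed in BF10 against aCSF1R (0.81, limma adjusted p 0.0361, 1% of all genes) and no member in IL-10-Fc against aCSF1R (0.439% of all genes).

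**Figure D3:**
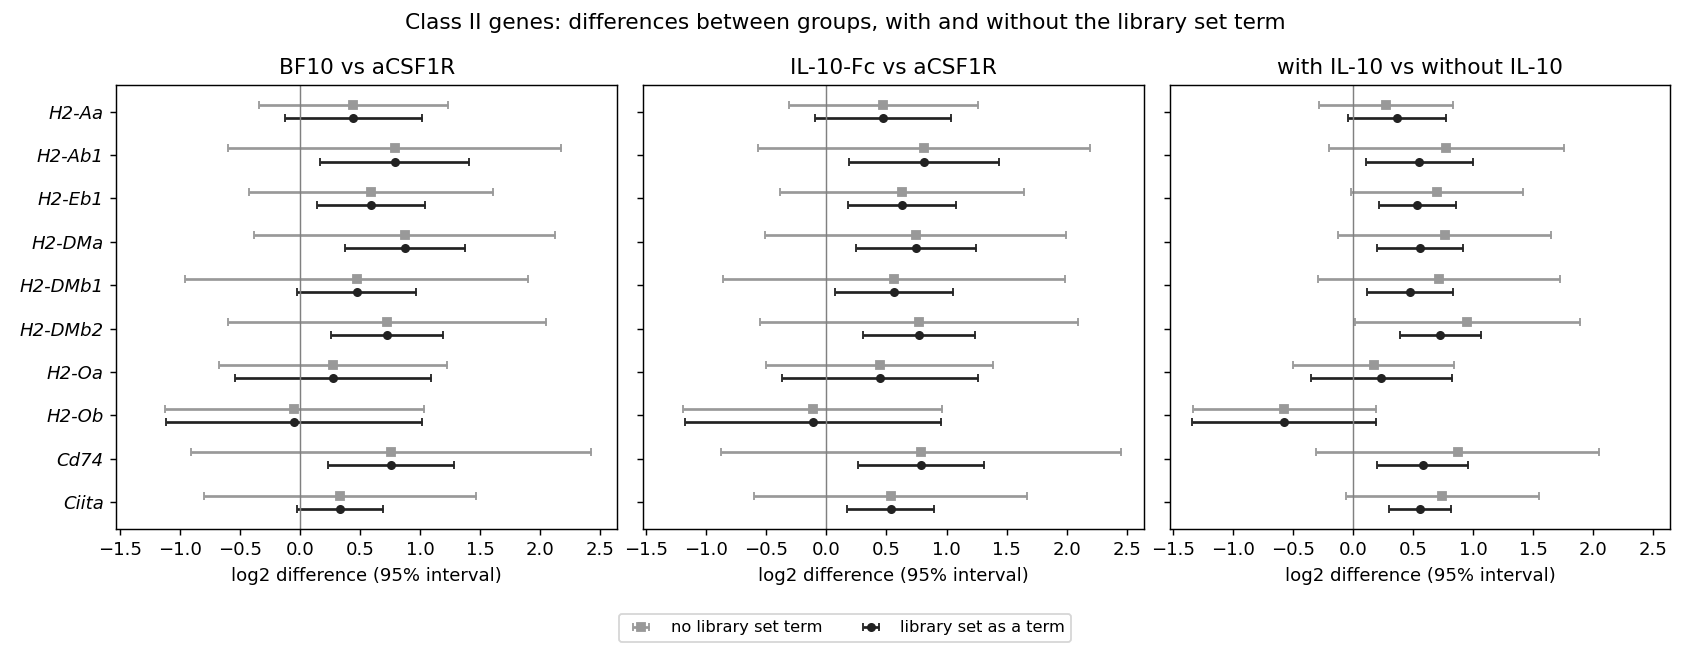
Log2 differences with 95% intervals (limma) of the 10 genes for BF10 against aCSF1R, IL-10-Fc against aCSF1R and the 6 libraries with IL-10 against the 6 without, in grey without and in black with the library set as a term. All genes but H2-Ob lie right of 0, and in the panel of IL-10 against no IL-10 the black interval of H2-DMb2 runs from 0.39 to 1.06.

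Libraries with IL-10 lay above those without for more of the 10 genes in the lower-sum than in the higher-sum set. Without IL-10 the lower-sum set held aCSF1R tumors and a single control, so the comparison there rests mostly on aCSF1R. In the lower-sum set, all 4 libraries with IL-10 (IL-10-Fc replicates 2 and 4, BF10 replicates 3 and 7) lay above all 3 without (control replicate 5, aCSF1R replicates 4 and 6) for 6 of the 10 genes, an arrangement found in 3.72% of all genes tested. H2-Aa was at 1285 to 1637 TPM against 800.3 to 883.5, H2-Ab1 at 852.03 to 979.6 against 480.9 to 525.5, H2-Eb1 at 945.1 to 1215 against 567.1 to 719.3, H2-DMa at 178.3 to 240.3 against 115 to 128, H2-DMb2 at 130.8 to 189.3 against 77.2 to 96.5, and Cd74 at 1928 to 2644 against 1328 to 1562. H2-Ea, outside the 10, did so too (805.8 to 1075 TPM against 526.5 to 599.9). H2-DMb1, Ciita, H2-Oa and H2-Ob overlapped. In the higher-sum set the same arrangement held for H2-DMb2 (56.7 and 57.1 TPM against at most 51.1) and Ciita (11.1 and 13.7 against at most 8.38), but it held for 44.6% of all genes there, so it says nothing particular of these genes. H2-DMb2 was the 1 member arranged so in both sets, as were 1.5% of all genes. Deposited sums were higher with IL-10 than without in the lower-sum set and lower in the higher-sum set, and their part in the arrangement was not tested beyond the fits with the sum as a covariate that follow.

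The comparison of the 6 libraries with IL-10 against the 6 without was added after these values were seen. The median difference over the 10 genes was 0.73 without the set term (all genes 0.22) and 0.54 with it (all genes 0.093), and median of ratios scaling turned H2-Aa to -0.014 and H2-Oa to -0.085. The libraries without IL-10 include the 3 of aCSF1R, and 9 of 11 macrophage genes passed as higher with IL-10 under the set term. Without the term none of the 10 passed (limma adjusted p from 0.820, 0.142% of all genes), and at an unadjusted p under 0.05 there were 1 of the 10 and 4.43% of all genes. With it H2-DMb2 passed at 0.73 (95% interval 0.39 to 1.06, limma adjusted p 0.0462), as did 1.39% of all genes, and Ciita had an adjusted p of 0.0472 at 0.56 but stayed under 1.5-fold. Cd74 was at 0.58, H2-DMa at 0.56, H2-Ab1 at 0.55, H2-Eb1 at 0.54, H2-DMb1 at 0.47, H2-Aa at 0.37, H2-Oa at 0.24 and H2-Ob at -0.57. Without control replicate 7 the number passing rose to 5 (H2-DMb2, H2-Ab1, H2-DMa, Cd74 and H2-Eb1, limma adjusted p 0.00798 to 0.0375, 1.1% of all genes).

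The call of H2-DMb2 was lost when the set term was joined by median of ratios scaling (0.59, limma adjusted p 0.233), when the library's log2 sum took the place of the set (0.64, limma adjusted p 0.183) and when both were in the model (0.76, limma adjusted p 0.0719). Its difference was above 0 in all 36 fits run, from 0.59 to 1.26, but these fits draw on the same 12 libraries. The differences of Ciita, H2-DMa, H2-Eb1, H2-DMb1, Cd74 and H2-Ab1 also stayed above 0 (lowest 0.42, 0.41, 0.36, 0.33, 0.33 and 0.30). A steady sign was thus not particular to H2-DMb2.

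The pair of DM beta chains offered a measure that does not depend on a library's total. The ratio of H2-DMb2 over H2-DMb1 in TPM was 0.755, 0.744 and 0.858 in control replicates 4, 5 and 7, and 0.828, 0.672 and 0.877 in aCSF1R replicates 4, 6 and 8. It was 0.873, 0.946 and 0.919 in IL-10-Fc replicates 2, 4 and 7 and 0.960, 0.981 and 0.884 in BF10 replicates 3, 6 and 7. The 6 libraries with IL-10 thus lay at 0.873 to 0.981 and the 6 without at 0.672 to 0.877, overlapping by 1 pair of libraries. The medians of the log2 ratio were close in the 2 sets, at -0.18 in the higher-sum and -0.19 in the lower-sum libraries.

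On the log2(TPM + 1) scale the ratio was 0.23 higher with IL-10 than without (exact permutation p 0.00433, two-sided, n = 6 and 6), or 0.121 after adjustment over the 28 ratio tests made (4 ratios in 7 comparisons). It was 0.26 higher in BF10 than in control, 0.25 higher in BF10 than in aCSF1R and 0.21 higher in IL-10-Fc than in control, with no overlap and an exact permutation p of 0.1 in each, the smallest that 3 against 3 can give. In IL-10-Fc against aCSF1R it was 0.21 higher with overlap (exact permutation p 0.2), and in aCSF1R against control the difference was 0.0035 (exact permutation p 1.00). With 1 library left out the difference of 6 against 6 ran from 0.19 to 0.26 (exact p 0.00433 to 0.00866). Within the lower-sum libraries it was 0.29 with no overlap (exact permutation p 0.0571, n = 4 and 3, the smallest that these numbers can give). The 2 genes are close copies, whose promoter stretches were given with the sequences. Of the 1604 windows of 75 bases in H2-DMb1 transcripts 15.8% also stood in H2-DMb2, so the division of shared reads between them is uncertain. None of the other 8 genes shared a window with another gene.

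**Figure D4:**
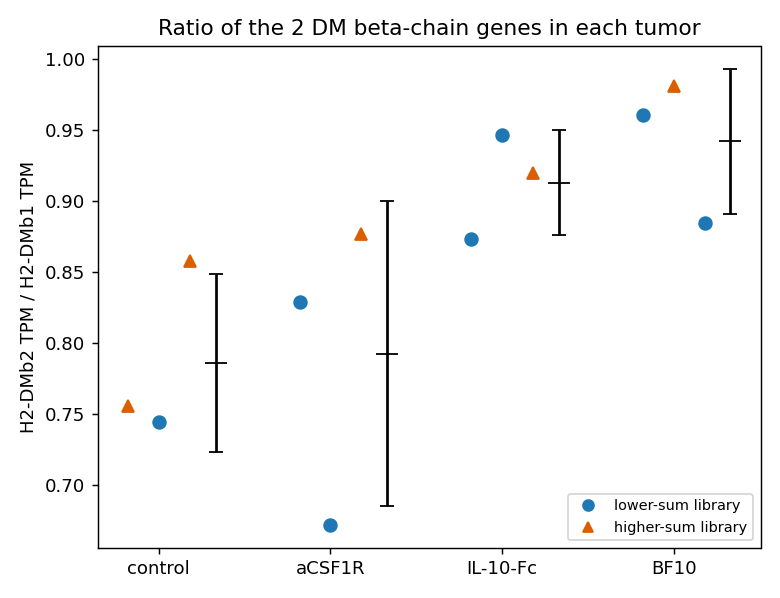
Ratio of H2-DMb2 to H2-DMb1 in TPM (linear axis that does not start at 0) in each tumor, with circles for lower-sum and triangles for higher-sum libraries and bars at the group mean and SD (n = 3). The IL-10-Fc and BF10 tumors lie at 0.873 and above, the control and aCSF1R tumors at 0.877 and below.

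For the other ratios within the family no exact p between groups was below 0.1, in tests that take no account of the library set. DO over DM (H2-Oa and H2-Ob over H2-DMa and H2-DMb1, mean log2) averaged -4.25 for control, -5.09 for aCSF1R, -5.57 for IL-10-Fc and -5.64 for BF10 tumors, with exact permutation p-values of 0.2 to 0.9 between pairs of groups. It was highest in control replicate 7 (-3.03), without which control averaged -4.87 and the difference of BF10 from control was -0.78 in place of -1.39 (exact permutation p 0.4), and that of IL-10-Fc -0.71 in place of -1.32. Without overlap it was -4.74 to -3.03 in higher-sum and -6.40 to -5.21 in lower-sum libraries. H2-Ob reached 1 TPM in only 3 libraries, so with the pseudocount of 1 this ratio leans on the DM chains. Cd74 over the mean of H2-Aa, H2-Ab1 and H2-Eb1 averaged 0.30 for control, 0.58 for aCSF1R, and 0.73 for both IL-10-Fc and BF10 (exact permutation p 0.4 to 1.00), and it too did not overlap between the sets (-0.55 to 0.30 in higher-sum, 0.71 to 1.18 in lower-sum libraries). Ciita over the same mean averaged -5.88, -5.17, -5.28 and -5.45 in these 4 groups (exact permutation p 0.2 to 0.7). Without control replicate 7, control averaged -5.56 for this Ciita ratio and 0.49 for the Cd74 ratio. The difference of BF10 from control was then 0.11 in place of 0.43 for Ciita and 0.24 in place of 0.42 for Cd74. In the 7 lower-sum libraries, Ciita and the mean of H2-Aa, H2-Ab1, H2-Eb1 and Cd74 went together, with Pearson's r of 0.911 (permutation p 0.00317) and Spearman's rho of 0.857 (permutation p 0.0238), and r was 0.835 without the 2 libraries farthest from the median of Ciita. It was the 1 such relation tested, and the points share the scale of their library and the groups.

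Genes most like the classical chains were sought by Pearson's r over the 12 libraries after the mean of the set was taken off, against the mean of the standardized H2-Aa, H2-Ab1, H2-Eb1 and Cd74, which favors those 4. Of the others H2-DMa came first (r = 0.940), then H2-DMb2 (0.918) and H2-DMb1 (0.871), while H2-Oa (0.783), Ciita (0.653) and H2-Ob (0.274) stood at ranks 30, 321 and 3773 of 15504. Among the highest outside the family were Tmem243 (0.907), Gpr18 (0.886), a lipid receptor, Tmbim4 (0.826) and the immunoglobulin segment Ighv2-2 (0.825). These r are descriptions over libraries that share groups.

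Macrophage transcripts fell much further in aCSF1R tumors than class II transcripts or the median of all genes did. CSF1R signalling keeps tissue macrophages alive, and of 11 macrophage genes 7 passed as lower in aCSF1R against control, 9 with the set term, with medians of -2.96 and -2.97. C1qa, a complement subunit made by macrophages, was at 623 to 823.5 TPM in control and 20.6 to 76.1 in aCSF1R (-3.98, limma adjusted p 0.000685). In the same comparison the class II median was 0.059, and -0.22 with the set term. Over all genes tested the median was 0.24 and 0.0068, and 0.568% and 2.01% of them passed. A gap to the macrophage genes is therefore not particular to class II. The mean log2(TPM + 1) of H2-Aa, H2-Ab1, H2-Eb1 and Cd74 exceeded that of the macrophage genes by 3.42 to 3.85 in control, 3.59 to 4.49 in IL-10-Fc, 3.66 to 4.46 in BF10 and 5.83 to 6.36 in aCSF1R, where it did not overlap the other groups. The 10 conventional dendritic cell genes summed to 94.5 to 336.8 TPM in aCSF1R and 143.5 to 320.4 in control, and of the 8 tested 0 passed. Fscn1, which is not specific to dendritic cells, carried most of that sum (80.3 to 295.9 TPM in aCSF1R and 105.1 to 260.3 in control). Clec9a, Cd209a and Naaa averaged 0.612, 0.786 and 17.1 TPM in aCSF1R against 1.11, 2.10 and 35.2 in control. Zbtb46, Batf3 and Ccr7 went the other way, averaging 3.77, 5.755 and 2.03 TPM in aCSF1R against 3.10, 5.02 and 1.68 in control. The averages of Flt3, Xcr1 and Ccl22 were lower in aCSF1R, and that of Fscn1 was higher. With the set term Naaa passed as lower in aCSF1R than in control (-1.33), IL-10-Fc (by 1.24) and BF10 (by 1.54). The 5 epithelial genes, markers of the tumor cells, summed to 667.6 to 2316 TPM in aCSF1R and 923 to 2174 in control with 0 of 5 passing. The part of any cell type in the class II values was not tested.

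**Figure D5:**
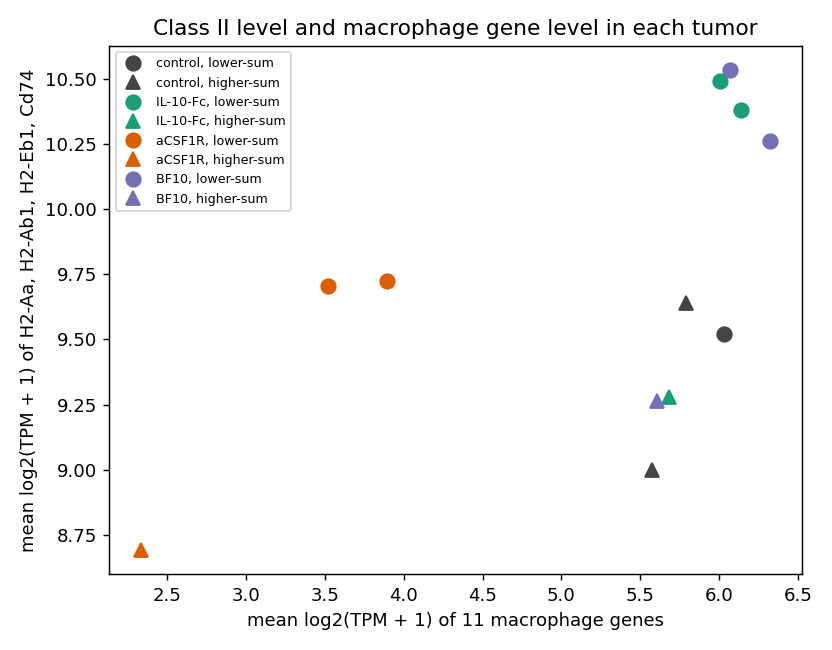
Mean log2(TPM + 1) of H2-Aa, H2-Ab1, H2-Eb1 and Cd74 (y axis) against that of 11 macrophage genes (x axis) in each of the 12 tumors, with circles for lower-sum and triangles for higher-sum libraries. The aCSF1R tumors lie at 2.33 to 3.90 on the x axis and all others at 5.58 or above, whereas on the y axis the aCSF1R tumors lie among the rest except for replicate 8 at 8.69.

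The 8 class II processing genes had a median of -0.57 in aCSF1R against control (-0.67 with the set term). Ctss, which makes the last cuts in the invariant chain, was at 870.4, 513.8 and 884.3 TPM in control and 116.8, 97.8 and 108.2 in aCSF1R, with no overlap. It fell by 2.76 on the log2 scale in aCSF1R (95% interval -3.29 to -2.23, limma adjusted p 0.000459), and BF10 and IL-10-Fc tumors exceeded aCSF1R tumors by 2.56 and 2.35. It was the 1 of the 8 that passed without the set term, and with the set term Ifi30, Lgmn and Ctsh passed too in aCSF1R against control, each lower. Ifi30, the lysosomal thiol reductase that unfolds antigens, was at 92.0 to 178.8 TPM in control and 17.9 to 62.4 in aCSF1R (-1.84 with the set term).

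Of 6 genes of class II turnover and the IL-10 receptor, 0 passed without and 3 with the set term in aCSF1R against control. Il10ra, the ligand-binding receptor chain, fell by 2.12 (0.51 to 4.73 TPM in aCSF1R, 7.75 to 16.7 in control). Marchf1, the ligase that IL-10 induces to clear class II from the surface, was at 0.814 to 2.42 TPM in aCSF1R and 4.22 to 5.19 in control, and with the set term it was higher by 1.55 in BF10 and by 1.25 in IL-10-Fc than in aCSF1R, whereas without it neither passed (limma adjusted p 0.107 for BF10). Cd83, which opposes Marchf1, fell by 2.20, and it was highest in control replicate 7 (25.1 TPM). Of 5 receptor and costimulation genes Cd86 passed as lower in aCSF1R (-1.84), and Cd80 and Cd86 passed as higher in BF10 than in aCSF1R with the set term (0.99 and 1.45).

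Upstream of class II, 0 of 10 genes of the promoter complex (Rfx5, Rfxap, Nfya and others) and 0 of 9 genes from interferon-gamma to Ciita passed in any comparison, with or without the set term. Rfxap had the smallest p of the first list in BF10 against control, at 0.75 (limma adjusted p 0.788). Ifng, the cytokine itself, was at 0.721 to 1.45 TPM in control and 1.37 to 3.05 in the treated groups, with 0.69 in BF10 against control (limma adjusted p 0.788). The class I processing genes Tap1, Tap2, Psmb8 and Psmb9 and the gene Brd2, which lie in the same stretch of chromosome 17, passed in no comparison, with Tap1 at 0.81 in IL-10-Fc against control (limma adjusted p 0.738). Of 5 T cell genes 0 passed, Cd8a having the smallest p at 0.95 in IL-10-Fc against control (limma adjusted p 0.738).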

How the data were processed

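Poly(A) RNA of 12 whole tumors was sequenced, and the authors deposited FPKM (fragment levels corrected for length and depth) per gene and library, with 2 decimals. Per the labels, the submitters' processing notes name STAR 2.7.5a, RSEM 1.3.3, DESeq2 1.28.0 and the builds mm10 and GRCm38, without giving their roles. Tables of the authors' own comparisons between groups (fold changes and p-values) were not used. No absolute depth can be read from FPKM. Relative depth, read from the steps of low values, was 0.904 to 1.07 of the median library.

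FPKM were scaled to a total of 1000000 per library, which is TPM, and tested as log2(TPM + 1) with limma 3.58.1 in R 4.3.3 (moderated variances with a trend, 1 mean per group over all 12 libraries). P-values were adjusted over the 15504 genes with at least 1 TPM in at least 3 libraries. The pseudocount of 1 understates the change of low genes. A gene passed at an adjusted p below 0.05 and at least 1.5-fold. Ratios and the Ciita relation were tested by exact permutation in scipy 1.17.1. How large a change the fit without the set term could find, with the difference between library sets present, was not tested.

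Groups came from the labels. The boundary between library sets (a sum of 700000), the 10 genes and every gene list were chosen with earlier results of these data known. Named genes were the 10, up to 2 passing genes of each list per direction and comparison, or the gene of smallest p in a list with none passing, and the 5 most like the classical chains. Some genes that this rule names are not reported here. Ms4a1, H2-Eb2 and the dendritic cell genes other than Naaa were named besides, after their values were seen. Alternatives covered pseudocount, scaling, filter, library set, FPKM sum, replicate block, library weights and leaving out each library. Gene positions are from GENCODE M21 and promoters from RefSeq.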

Additional observations from a re-analysis of the deposited data

How the results depend on the processing

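Without a set term, 0 of the 10 class II genes passed in each of the 7 planned comparisons, and this held under another pseudocount (0.1), no rescaling, median of ratios scaling, no filter, no fold limit, only the groups compared, and with each library left out (0 to 0). The count moved with limma's sample quality weights, whose estimation did not converge, to 8 for each treatment against control, 1 for BF10 and 6 for IL-10-Fc when set against aCSF1R, 3 in the non-additive contrast and 8 with IL-10 against without. Under these weights 57.8% to 63.8% of all genes passed against control, 3.0% and 12.7% in the pair against aCSF1R, 59.1% in the non-additive contrast and 22.3% with IL-10 against without. It was 1 among lower-sum libraries only in BF10 against aCSF1R (H2-Ab1), and 1 with the set term in the added comparison of IL-10 against none (H2-DMb2). Leaving out single libraries under the set term gave 0 to 3 when either IL-10 treatment was set against aCSF1R, and 0 to 5 with IL-10 against without. The highest counts came without control replicate 7, and without BF10 replicate 3 the last was 2 (1.17% of all genes). The cause was not tested, and the fits under the set term without a library were added after the data were seen.

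With the replicate number as a block, 0 genes passed, and 26 of the 80 differences turned sign, up to one of 0.81. Same-numbered libraries of different groups did not deviate together (7 pairs, correlation -0.22 to 0.34, median -0.052), so they share only a number. The signs of 14 differences turned under median of ratios scaling and of 7 under the set term, none of them passing. FPKM give no counts, so no counting error can be stated for the low DO chains, and 3 tumors per group limit every comparison.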
